A study of Mus musculus with 6 samples.

Results

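The genes described are 10 members of MHC class II antigen presentation and costimulation, taken out of 37991 genes counted in mouse group 2 innate lymphoid cells (ILC2). They were chosen by symbol: H2-Aa, H2-Ab1, H2-Eb1, H2-DMa, H2-DMb1, Cd74, Ciita, Ctss, Cd80 and Cd86. All 10 matched an Ensembl identifier in the count files, and all 10 passed the filter on low counts that left 16231 genes for testing. ILC2 are lymphocytes without antigen receptors that make type 2 cytokines such as IL-5 and IL-13. The cells were sorted as lineage-negative, Thy1-positive and ST2-positive. There were 3 groups of 2 libraries each: ILC2 taken directly from the thymus, ILC2 taken directly from mesenteric lymph nodes (fresh MLN), and sorted MLN ILC2 kept in culture with 3 cytokines, IL-7, IL-25 and IL-33, each at 10 ng/ml, over 1 week (cultured MLN). Every donor mouse was homozygous for a transgene in which the proximal lck promoter drives Id1, whose protein blocks E proteins from binding DNA. The line was made on FVB/N and crossed back to C57BL/J for 10 generations or more. Per the labels, T cell development is blocked in these mice and ILC2 are overproduced in the thymus and build up elsewhere. No group lacked the transgene, so nothing below compares transgenic with wild-type cells, and the labels give no age.

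MHC class II molecules are pairs of an alpha and a beta chain that display peptides from endocytosed protein to CD4 T cells. The chains assemble with the invariant chain, Cd74, which cathepsin S (Ctss) trims away, and H2-DM (H2-DMa with H2-DMb1) then exchanges the remaining fragment for peptide while H2-DO (H2-Oa with H2-Ob) restrains H2-DM. The coactivator Ciita drives the class II genes together through the X and Y boxes of their promoters, and Cd80 and Cd86 give the second signal through Cd28 on the T cell. ILC2 have been described as carrying class II and costimulatory ligands and as exchanging signals with CD4 T cells. H2-Aa and H2-Ab1 encode the 2 chains of I-A, and H2-Eb1 encodes the beta chain of I-E.

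Promoters of some members are shown for the boxes through which Ciita acts. RefSeq promoters (250 bases before to 50 after the gene start, build GRCm38.p6) were searched for H2-Aa, H2-Eb1, H2-DMa, H2-DMb1, Ctss and Cd80, 6 of the 10 members, and not for H2-Ab1, Cd74, Ciita and Cd86. They are printed 5′ to 3′ on the gene's strand for the 4 members with a match, with matched motifs in capitals. The motifs, searched on both strands, were the X box, the X2 box TGACGTCA, the Y box TGATTGG and the ISRE, the interferon response element. In the printed promoters no match overlapped another.
H2-Aa: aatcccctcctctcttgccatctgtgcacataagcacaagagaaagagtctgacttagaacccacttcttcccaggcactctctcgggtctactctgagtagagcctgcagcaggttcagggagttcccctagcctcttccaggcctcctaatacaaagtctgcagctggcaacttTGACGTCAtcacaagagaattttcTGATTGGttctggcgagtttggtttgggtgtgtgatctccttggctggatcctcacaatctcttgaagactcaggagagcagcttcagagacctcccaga
H2-Eb1: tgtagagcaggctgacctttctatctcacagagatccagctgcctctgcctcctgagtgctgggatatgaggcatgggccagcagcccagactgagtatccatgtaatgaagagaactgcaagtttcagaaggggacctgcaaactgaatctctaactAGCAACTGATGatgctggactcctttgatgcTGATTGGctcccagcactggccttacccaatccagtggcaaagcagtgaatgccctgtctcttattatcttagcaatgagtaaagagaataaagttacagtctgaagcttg
H2-DMb1: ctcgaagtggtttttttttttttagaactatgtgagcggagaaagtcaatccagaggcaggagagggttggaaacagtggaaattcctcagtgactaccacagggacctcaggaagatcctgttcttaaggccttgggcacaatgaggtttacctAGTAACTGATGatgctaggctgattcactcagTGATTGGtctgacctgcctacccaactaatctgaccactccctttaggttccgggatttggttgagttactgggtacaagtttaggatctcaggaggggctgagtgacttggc
Ctss: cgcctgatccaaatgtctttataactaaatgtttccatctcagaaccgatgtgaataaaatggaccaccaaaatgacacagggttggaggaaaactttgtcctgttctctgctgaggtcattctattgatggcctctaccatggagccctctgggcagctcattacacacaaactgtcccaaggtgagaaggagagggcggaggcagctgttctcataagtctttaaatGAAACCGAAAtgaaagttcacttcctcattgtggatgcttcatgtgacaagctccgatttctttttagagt
They lie at chr17:34287774-34288073 on the minus strand (H2-Aa), chr17:34305617-34305916 on the plus strand (H2-Eb1), chr17:34152941-34153240 on the plus strand (H2-DMb1) and chr3:95526536-95526835 on the plus strand (Ctss). H2-Aa has an X2 box 74 bases before the start and a Y box 50 bases before it. The X box was matched as AGCAACTGATG in H2-Eb1 and as AGTAACTGATG in H2-DMb1, and the ISRE as GAAACCGAAA in Ctss. H2-Eb1 has an X box at 92 and a Y box at 61 bases before the start, and H2-DMb1 has them at 95 and 63. Ctss has an ISRE 21 bases before its start and no match to the class II boxes. The promoters of H2-DMa and Cd80 held no match to these motifs. Each motif was searched as a fixed pattern of letters. A box that differs from its pattern would be missed, so no match does not show that a box is absent. Among all 32851 promoters of the same length, the X box occurred in 0.298%, the X2 box in 1.79%, the Y box in 7.82% and the ISRE in 3.44%. A match describes letters in this window and is no measured binding site. H2-Eb1 and H2-DMb1 share the X and Y boxes, and their levels moved in opposite directions in culture, as described below. Outside the members, H2-Eb2 also held both boxes, and it had 117 counts over fresh MLN and 2 over cultured cells.

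Library totals ran from 35280692 to 40578264 counts, and levels are CPM, counts scaled to a common library size with TMM factors. In a single library, 3 counts equal 0.0739 to 0.0905 CPM, which covers counting error only. Markers of the labelled cell type were read: Gata3, Il1rl1, which encodes ST2, and Thy1 had means of 660, 1450 and 731 CPM in thymus, of 610, 1851 and 335 CPM in fresh MLN, and of 1048, 2314 and 113 CPM after culture. Since the cells were sorted on ST2 and Thy1, only Gata3 among these genes is a marker apart from the sort. The summed level of 11 ILC2 markers was 7023 to 7133 CPM in thymus, 8884 to 8943 in fresh MLN and 24503 to 25996 after culture. Most of the sum after culture came from the cytokine genes Il5 and Il13, at means of 8360 and 10171 CPM. Against fresh MLN 7 of the 11 were higher and 4 lower in culture, the latter being Thy1, Il7r (2280 to 851 CPM), Rora (610 to 146 CPM) and Il17rb, a chain of the IL-25 receptor (2905 to 112 CPM). In that comparison 77.6% of all genes tested were called higher or lower, by the test described below. Id1 counts, which hold the endogenous gene and the transgene together, were 424 CPM in thymus and 451 in fresh MLN but 1.33 in cultured cells (log2 fold change against fresh MLN -8.41 ± 0.11). Whether paired libraries came from separate animals or cultures is not stated in the labels, and p-values therefore reflect the spread of these libraries alone, which may be technical. Because the samples are bulk RNA, fewer cells of a type and less RNA per cell cannot be told apart for any gene below.

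In thymus, 8 of the 10 members were lower than in fresh MLN, 1 was higher (H2-DMb1) and 1 was not called (Cd80), by an edgeR quasi-likelihood test with Benjamini-Hochberg adjustment at 0.05 over all genes. The same test called 47.3% of all genes tested, 22.0% as lower and 25.3% as higher in thymus. The median log2 fold change was -1.08 over the 10 members and 0.00 over all genes. The ranges of the libraries were separate for 9 of the 10 members and for 72.8% of all genes. After culture the members divided evenly against fresh MLN, with 4 higher (H2-Ab1, H2-DMa, H2-DMb1 and Cd80), 4 lower (H2-Aa, H2-Eb1, Cd74 and Ctss) and 2 not called (Ciita and Cd86). In that comparison 77.6% of all genes were called, 39.4% higher and 38.1% lower, so 8 of 10 is near the background. The members' median was 0.17 and that of all genes -0.01, and the groups were separate for 8 of 10 members and for 89.2% of all genes.

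Between cultured cells and thymus all 10 members were called, 7 higher and 3 lower (H2-Aa, H2-Eb1 and Ctss) in cultured cells, where 72.7% of all genes were called, 34.8% as higher and 37.8% as lower. Medians were 1.24 over the members and -0.06 over all genes, and the groups were separate for all 10 members and for 86.0% of all genes. With library totals alone in place of TMM scaling, the calls over all genes in that comparison were 4254 higher and 7881 lower, against 5654 and 6139. Tested against a 2-fold change, the calls of H2-Ab1, H2-DMa and Ciita were lost in thymus against fresh MLN, those of H2-DMa and Cd74 in cultured against fresh MLN, and those of H2-Aa, H2-Eb1, H2-DMa and Ciita in cultured cells against thymus. Each pair of the 3 comparisons shares a group of libraries, so their folds are not independent of each other.

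**Figure D1:**
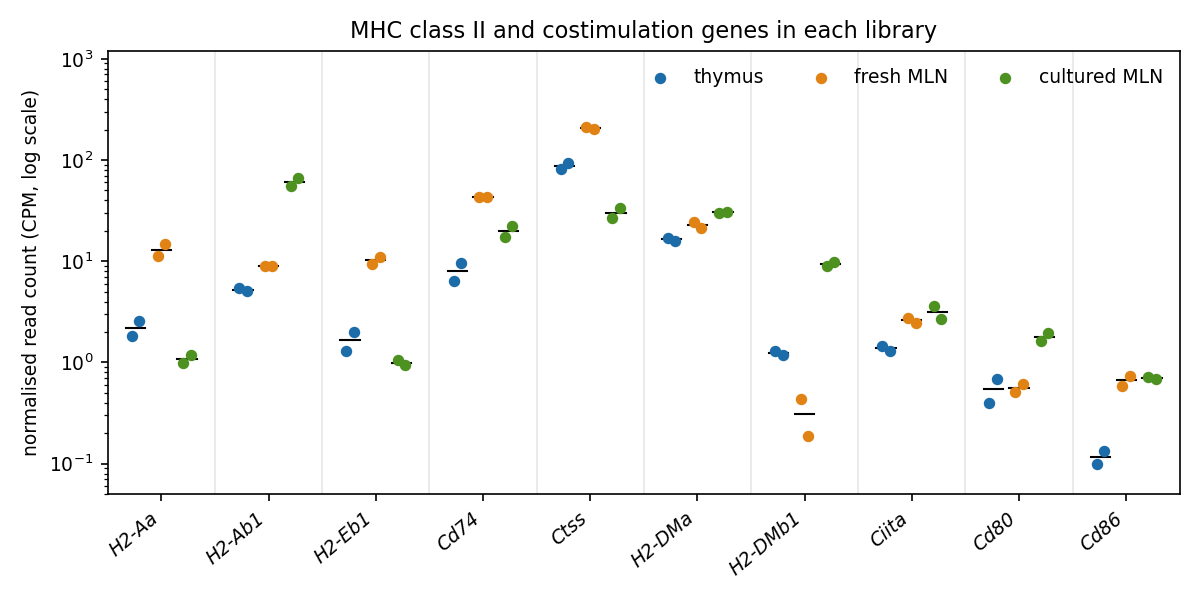
Level of each of the 10 members in each of the 6 libraries, in CPM on a log axis, with points for single libraries and short lines for the group mean. H2-Ab1 and H2-DMb1 are highest in both cultured libraries, whereas H2-Aa, H2-Eb1 and Ctss are lowest there.

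**Figure D2:**
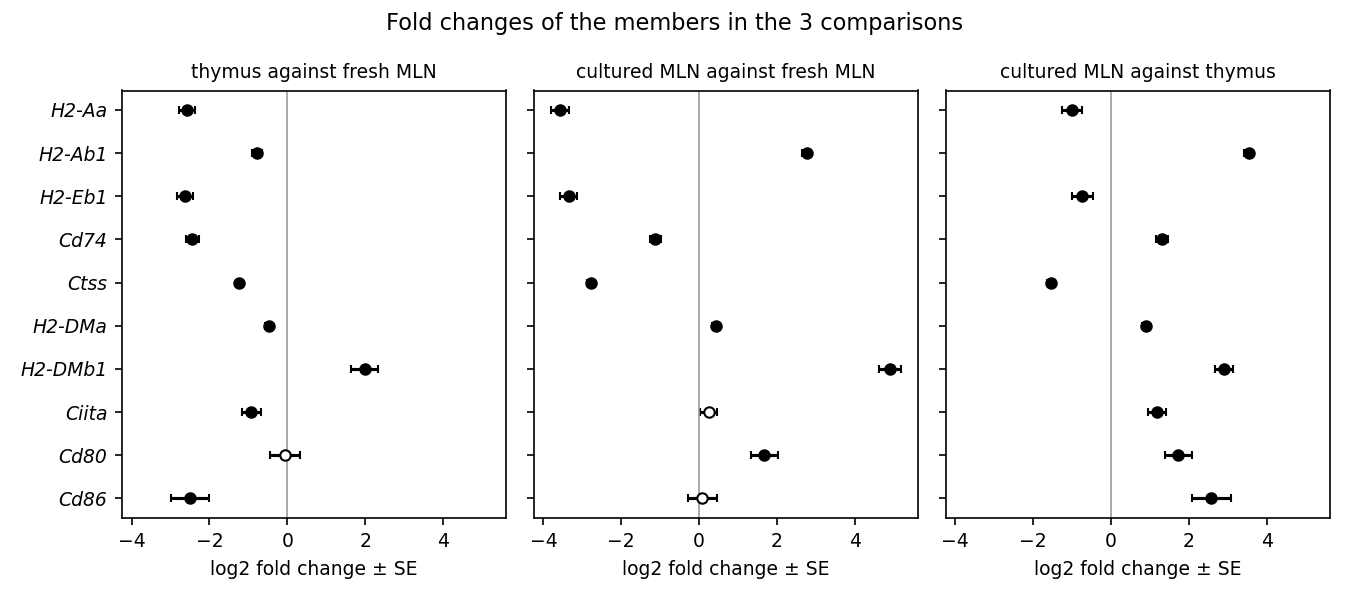
Log2 fold changes of the 10 members with standard errors in the 3 comparisons, with filled symbols for genes called at an adjusted p under 0.05. In thymus against fresh MLN 8 called members lie below 0, and in cultured against fresh MLN 4 called members lie on each side.

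The chains of class II itself came apart in culture: the I-A beta chain rose while the I-A alpha chain and the I-E beta chain fell. H2-Aa (ENSMUSG00000036594), the alpha chain of I-A, was 1.82 and 2.55 CPM in the thymus pair, 11.3 and 14.8 in the fresh MLN pair, and 0.995 and 1.19 after culture. Both fresh MLN libraries were above all others and both cultured libraries below all others. Its log2 fold change was -2.58 ± 0.20 in thymus (adjusted p = 3.35e-07, edgeR) and -3.57 ± 0.23 in cultured cells (adjusted p = 7.4e-09, edgeR), each against fresh MLN, and -0.99 ± 0.26 in cultured cells against thymus (adjusted p = 0.00399, edgeR). H2-Eb1 (ENSMUSG00000060586) was 1.31 and 2.02 CPM in the thymus pair, 9.45 and 10.9 in the fresh MLN pair, and 1.06 and 0.937 after culture. The fresh MLN libraries again stood above the rest, with log2 fold changes of -2.62 ± 0.21 in thymus and -3.35 ± 0.23 in cultured cells. Cultured cells were also below thymus, at -0.73 ± 0.27 (adjusted p = 0.0259, edgeR). That call was lost without the second thymus library (-0.40, adjusted p = 0.24, edgeR), without either cultured library (adjusted p = 0.0509 and 0.113, edgeR) and in a fit of the 2 groups alone (adjusted p = 0.057, edgeR). Its adjusted p ranged from 0.00434 to 1 over all alternatives.

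H2-Ab1 (ENSMUSG00000073421), the beta chain that pairs with H2-Aa, was 5.40 and 5.02 CPM in the thymus pair, 9.04 and 8.89 in the fresh MLN pair, and 55.3 and 66.2 after culture. The 3 groups did not overlap, in the order thymus, fresh MLN, cultured cells. It was 6.77-fold higher in cultured than in fresh MLN cells (log2 fold change 2.76 ± 0.10, adjusted p = 3.89e-11, edgeR) and 11.7-fold higher than in thymus (3.54 ± 0.11, adjusted p = 8.68e-12). In thymus it was lower than in fresh MLN by a log2 fold change of -0.78 ± 0.12 (adjusted p = 0.000169, edgeR). Per length of exon, the H2-Ab1 level was 4.38 and 2.91 times that of H2-Aa in the thymus libraries, 1.19 and 0.888 times in fresh MLN, and 82.2 and 82.6 times in cultured cells. The chains of I-A were thus near equal in RNA per length in fresh MLN and far apart in both cultured libraries. With 2 values against 2, an exact permutation test of such a ratio cannot go below p = 0.333, so none was run. The ratio of H2-Eb1 to H2-Aa per length stayed between 1.40 and 2.07 in all 6 libraries. H2-Ea-ps, the alpha chain gene of I-E that the annotation lists as a pseudogene, had 0 counts in all 6 libraries.

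**Figure D3:**
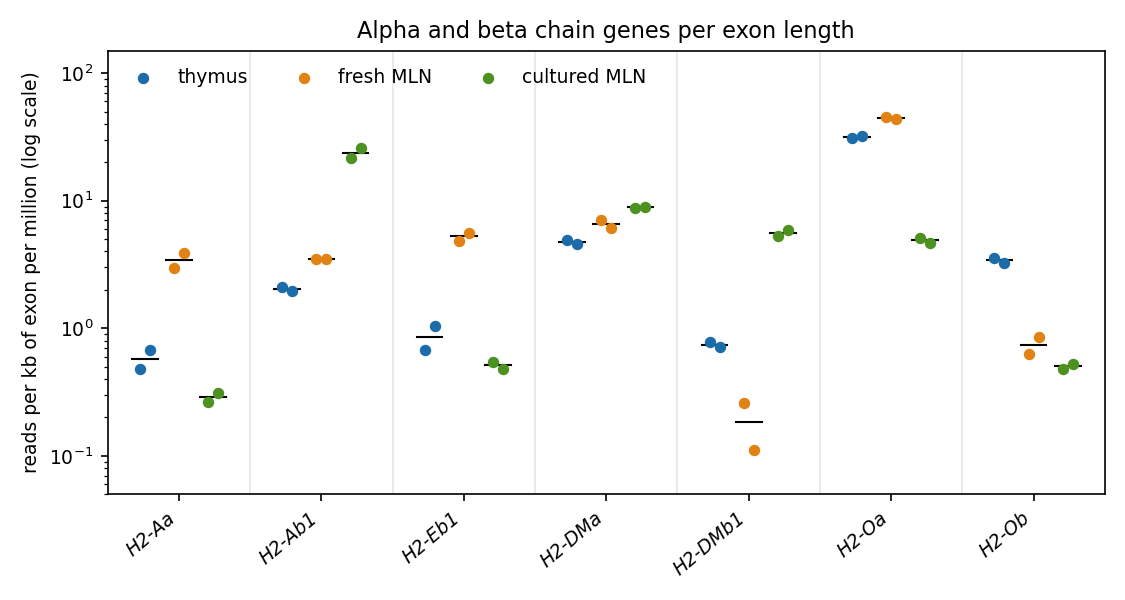
Levels per length (CPM per kb of exon) of class II chains and of the H2-DM and H2-DO chains in the 6 libraries, on a log axis. H2-Aa and H2-Ab1 lie close together in fresh MLN and are separated by a ratio of 82.2 and 82.6 in the cultured libraries. There H2-Aa had 33 and 43 counts.

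Markers of other cell types moved with H2-Aa and H2-Eb1 in part. Lyz2, a lysozyme of macrophages, had 35 and 103 counts in the thymus pair, 307 and 514 in the fresh MLN pair, and 3 and 17 after culture. The complement genes C1qa and C1qb, which macrophages express, had 10 to 27 counts per library in thymus, 40 to 88 in fresh MLN and 0 or 1 in cultured cells. In thymus and in fresh MLN, the library with more Lyz2 (the second in each) also had more H2-Aa, H2-Eb1, Cd74, Cd80 and Cd86. It had less H2-Ab1, H2-DMa, H2-DMb1 and Ciita, and Ctss was higher in it in thymus but lower in fresh MLN. Several of these differences lay within counting error. In fresh MLN, Cd74 was 43.5 and 43.6 CPM, H2-Ab1 was 9.04 and 8.89 CPM, and Cd80 had 20 and 23 counts. In thymus, Cd86 had 4 and 5 counts. In the cultured pair, the second library had more Lyz2 and H2-Aa but less H2-Eb1. The summed level of 10 macrophage markers was 6.16 to 10.0 CPM in thymus, 15.1 to 26.1 in fresh MLN and 20.5 to 21.6 in cultured cells, where Cd68 made up most of it. For 10 dendritic cell markers the sums were 20.2 to 22.8, 40.4 to 43.9 and 49.8 to 52.6 CPM, and for 10 B cell markers 78.1 to 84.6, 156 to 201 and 110 to 124 CPM. In cultured cells Xcr1 made up most of the dendritic sum, at a mean of 36.1 CPM. Ighm made up most of the B cell sum in every library. Of the 7 dendritic markers tested, 5 were lower and 1 higher in cultured than in fresh MLN cells. Zbtb46 had 88 and 76 counts in the thymus pair, 180 and 160 in the fresh MLN pair, and 11 in each cultured library. Flt3 had 6 in each thymus library, 40 and 33 in the fresh MLN pair, and 3 and 2 after culture. The part of such cells in the levels of H2-Aa, H2-Eb1 and Cd74 was not tested. In culture, where H2-Ab1 and H2-DMb1 rose, members of these lists differed in direction. C1qa, C1qb, Clec9a, Batf3 and Ms4a1 were at 0 or 1 counts per cultured library. The macrophage gene Adgre1 rose from 20 counts over fresh MLN to 248 over cultured cells, and Cd68, Xcr1 and Cd79b were 4.13-fold, 6.06-fold and 3.51-fold higher in culture. Cd14, with too few counts to be tested, had 1 count over fresh MLN and 25 over cultured cells, and the B cell factor Ebf1 had 0 and 81. Adgre1, Cd14, Ebf1, Flt3 and Zbtb46 are named after their values were seen. The part of such cells in the rise of H2-Ab1 and H2-DMb1 was not tested.

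**Figure D4:**
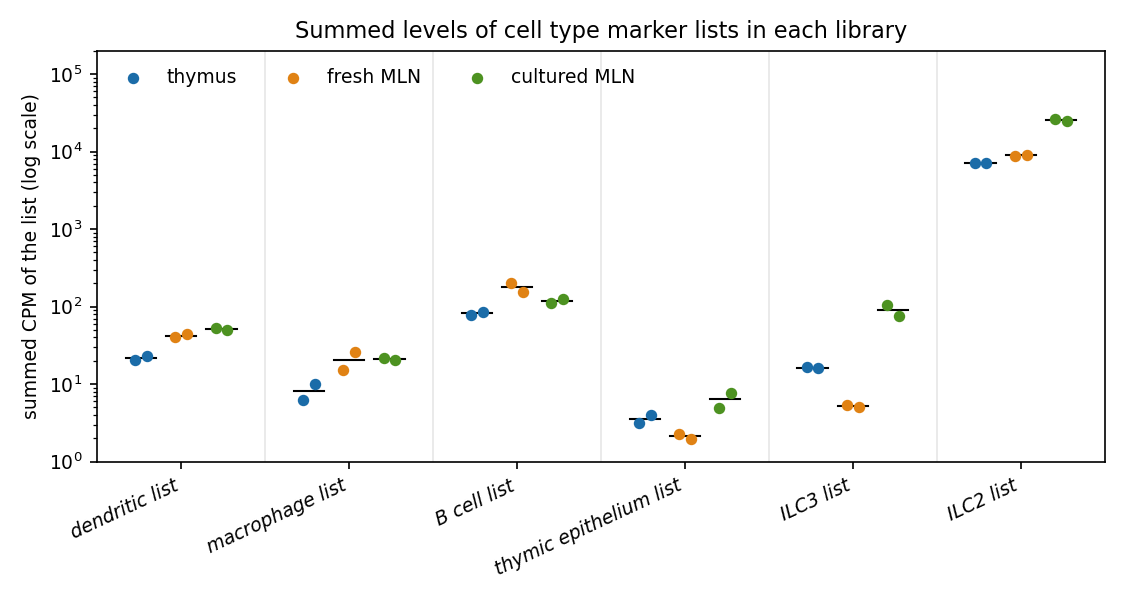
Summed level in CPM, per library, of the marker lists for ILC2 and for other cell types, on a log axis, with points for libraries and short lines for means. The sums differ between groups, with dendritic markers at 20.2 to 22.8 CPM in thymus, 40.4 to 43.9 in fresh MLN and 49.8 to 52.6 in cultured cells. In cultured cells Xcr1 made up most of the dendritic sum.

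Some of the abundant genes in these lists are also used by other lymphocytes. Beside the counts of each list stand the shares of all genes called, 47.3% in thymus and 77.6% in cultured cells against fresh MLN. Among dendritic markers, 7 of 10 were tested. Of these, thymus against fresh MLN had 1 higher and 4 lower, and cultured against fresh MLN 1 higher and 5 lower. Fscn1, an actin-bundling protein of mature dendritic cells, was 0.670 CPM in thymus, 15.9 in fresh MLN and 1.47 after culture. Xcr1, a chemokine receptor of cross-presenting dendritic cells, was 8.77, 5.96 and 36.1 CPM in the same order, and Ccr7, a homing receptor, was 8.19, 8.70 and 9.20 CPM and was not called in any comparison. Siglech had 0 counts in both thymus libraries, 3 and 14 in the fresh MLN pair, and 0 and 2 after culture. Of the B cell list, 6 of 10 were tested, with 2 higher and 2 lower in thymus and again 2 and 2 in cultured cells against fresh MLN. Ighm, the mu heavy chain, was 57.1, 161 and 66.1 CPM and Cd79b 19.9, 13.9 and 48.7, while Ms4a1 had at most 1 count in any library. Of 8 thymic epithelial markers 3 were tested, with summed levels of 3.13 to 4.01 CPM in thymus, 1.94 to 2.29 in fresh MLN and 4.95 to 7.69 after culture. Thymus had 1 higher than fresh MLN, cultured cells had 2 higher and 1 lower, and Krt14 had 0 counts in every library. Foxn1, Krt5, Krt8 and Psmb11 had at most 5 counts in any library. Prss16 had 17 and 25 counts in the thymus pair, 1 and 0 in the fresh MLN pair, and 4 and 30 after culture. Epcam had 86 and 98, 76 and 58, and 159 and 242 counts in the same order, and Aire 18 and 15, 12 and 15, and 1 and 0. The part of epithelial cells in the levels of the members was not tested. Of 6 ILC3 markers 5 were tested, with 4 higher in thymus than in fresh MLN and 2 higher and 3 lower in cultured cells, and Il17a had 0 counts in every library. The count of 3 became 1 without the second thymus library, the second fresh MLN library or the second cultured library. The ILC3 sums were 16.0 to 16.6 CPM in thymus, 5.07 to 5.34 in fresh MLN and 74.8 to 106 after culture, where Il22 had 3456 and 2628 counts. Of 10 macrophage markers 7 were tested, with 3 lower in thymus and 2 higher and 5 lower in cultured cells against fresh MLN. The 3 became 1 without the first thymus or the second fresh MLN library.

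Cd74 and Ctss, which trims the invariant chain, were both highest in fresh MLN. Cd74 (ENSMUSG00000024610), the invariant chain, was 6.41 and 9.70 CPM in the thymus pair, 43.5 and 43.6 in the fresh MLN pair, and 17.3 and 22.5 after culture. The groups did not overlap, and cultured cells lay between thymus and fresh MLN. Cultured cells were at -1.13 ± 0.15 against fresh MLN (adjusted p = 1.12e-05, edgeR) and 1.31 ± 0.16 against thymus (adjusted p = 8.81e-06, edgeR), and thymus was at -2.44 ± 0.16 against fresh MLN. Against a 2-fold change, the difference between cultured and fresh MLN cells was not called (adjusted p = 0.191, edgeR). Per length, Cd74 was 1.82 and 2.95 times the level of H2-Ab1 in the thymus pair, 7.35 and 7.49 times in the fresh MLN pair, and 0.479 and 0.520 times after culture. The invariant chain was thus above the I-A beta chain in both fresh groups and below it in both cultured libraries.

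Ctss (ENSMUSG00000038642), the protease that trims the invariant chain, was 82.2 and 92.5 CPM in the thymus pair, 211 and 201 in the fresh MLN pair, and 26.8 and 33.4 after culture. The groups did not overlap, with the highest level in fresh MLN and the lowest in cultured cells. Its log2 fold changes were -1.24 ± 0.09 in thymus (adjusted p = 1.91e-07, edgeR) and -2.77 ± 0.10 in cultured cells (adjusted p = 2.12e-11, edgeR), each against fresh MLN. Per length, Ctss led the 10 members in thymus and fresh MLN, at means of 64.3 and 152 CPM per kb. In cultured cells H2-Ab1 and Ctss were at 23.6 and 22.2, with libraries that overlapped.

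Other endosomal enzymes moved opposite to Ctss in culture. Lgmn, an asparaginyl protease that starts cleavage of the invariant chain, was 20.7 and 24.9 CPM in the thymus pair, 24.4 and 21.0 in the fresh MLN pair, and 250 and 286 after culture. Both cultured libraries stood far above the other 4, with a log2 fold change of 3.56 ± 0.11 against fresh MLN, and thymus and fresh MLN overlapped. Ctsl, the cathepsin that trims the invariant chain in thymic epithelium, rose by 2.86 ± 0.11 in culture, from a mean of 4.96 to 35.9 CPM. Ctsd, the most abundant of this list, was 589 CPM in thymus, 664 in fresh MLN and 3976 after culture, and Ifi30, a thiol reductase that opens disulfide bonds of antigens, was 15.8, 8.08 and 56.9 CPM. Over 14 other genes of class II processing, 13 were tested. In thymus against fresh MLN 4 were higher and 4 lower (median log2 fold change -0.20), in cultured against fresh MLN 7 were higher and 6 lower (median 1.51), and in cultured cells against thymus 7 were higher and 5 lower (median 1.51). The shares called over all genes were 47.3%, 77.6% and 72.7% in that order. The 4 lower in thymus became 2 without the first thymus library or the second fresh MLN library.

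Both chains of the exchange factor H2-DM differed between all 3 groups, the alpha chain by up to 1.86-fold and the beta chain by up to 30.2-fold. H2-DMa (ENSMUSG00000037649) was 16.9 and 15.9 CPM in the thymus pair, 24.5 and 21.1 in the fresh MLN pair, and 30.1 and 31.0 after culture. The 3 groups did not overlap, with log2 fold changes of 0.90 ± 0.09 in cultured cells against thymus (adjusted p = 1.75e-06, edgeR) and of -0.47 ± 0.10 in thymus and 0.42 ± 0.09 in cultured cells against fresh MLN (adjusted p = 0.00124 and 0.000999, edgeR). The difference between cultured and fresh MLN was not called with library totals alone (0.20, adjusted p = 0.0669, edgeR). H2-DMa shares 360 of its 3448 bases of exon with Brd2 on the opposite strand in GENCODE M21, and Brd2 was 410, 429 and 358 CPM in thymus, fresh MLN and cultured cells. Since the strand setting of the counting is not given in the sources used here, reads of the 2 genes in that stretch cannot be told apart.

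H2-DMb1 (ENSMUSG00000079547) was 1.31 and 1.20 CPM in the thymus pair, 0.437 and 0.186 in the fresh MLN pair (17 and 7 counts), and 8.90 and 9.92 after culture. It was the only member that was higher in thymus than in fresh MLN (1.99 ± 0.34, adjusted p = 0.00041, edgeR), and it was 30.2-fold higher in cultured than in fresh MLN cells (4.90 ± 0.28, adjusted p = 2.45e-09, edgeR). The groups did not overlap. Without the first fresh MLN library these values became 2.73 and 5.64. Per length, H2-DMa was 6.32 and 6.47 times the level of H2-DMb1 in the thymus pair, 27.4 and 55.3 times in the fresh MLN pair, and 1.65 and 1.52 times after culture. The chains of H2-DM were thus closest to equal in cultured cells. Of 50-base stretches of H2-DMb1 exons, 22.7% also occur in H2-DMb2. A read within them would match both genes, and how such reads were counted is not given in the sources used here. H2-DMb2 itself had 14 counts over thymus, 42 over fresh MLN and 12 over cultured cells.

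The chains of H2-DO, the brake on H2-DM, were both lowest in culture. H2-Oa was 43.6 and 45.5 CPM in the thymus pair, 63.6 and 61.4 in the fresh MLN pair, and 7.24 and 6.50 after culture. Cultured cells stood below the other 4 libraries, at -3.19 ± 0.09 against fresh MLN (adjusted p = 1.97e-12, edgeR). H2-Ob was 19.3 and 17.6 CPM in the thymus pair, 3.39 and 4.57 in the fresh MLN pair, and 2.59 and 2.81 after culture. It was higher in thymus than in fresh MLN (2.21 ± 0.15, adjusted p = 1.03e-07, edgeR) and lower after culture (-0.55 ± 0.18 against fresh MLN). H2-Oa shares 321 of its 1407 bases of exon with the antisense gene BC051537, which was not among the genes counted. The same doubt on strand holds for H2-Oa. The promoters of H2-Oa and H2-Ob hold a Y box but no X box in the letters searched. H2-Eb2, a further class II beta chain, had 44 counts over thymus, 117 over fresh MLN and 2 over cultured cells, a ratio of cultured to fresh MLN of 0.0180 (95% counting interval 0.00226 to 0.0697).

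Ciita (ENSMUSG00000022504), the coactivator, was lower in thymus and was not called between cultured and fresh MLN. It was 1.45 and 1.30 CPM in the thymus pair, 2.77 and 2.47 in the fresh MLN pair, and 3.59 and 2.67 after culture. Thymus lay below the other 4 libraries, and fresh and cultured MLN overlapped. Thymus was lower than fresh MLN by -0.93 ± 0.24 (adjusted p = 0.00619, edgeR), and cultured cells were higher than thymus by 1.18 ± 0.24 (adjusted p = 0.000553, edgeR). Cultured and fresh MLN cells were not called (0.25 ± 0.22, adjusted p = 0.306, edgeR), which does not show that they were alike. Ciita shares 329 of its 9535 bases of exon with Dexi on the opposite strand, and Dexi was 20.9, 18.8 and 25.9 CPM in thymus, fresh MLN and cultured cells. Reads in that stretch cannot be told apart for the reason given for H2-DMa.

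Around Ciita, Nlrc5 and Irf1 were highest in fresh MLN, and IRF family members differed in direction. Nlrc5, the coactivator of class I genes, was 229 and 178 CPM in the thymus pair, 573 and 540 in the fresh MLN pair, and 80.6 and 84.9 after culture. The groups did not overlap, with log2 fold changes of -1.45 ± 0.10 in thymus and -2.75 ± 0.10 in cultured cells against fresh MLN. Irf1, an interferon-induced factor, was 192, 366 and 146 CPM in thymus, fresh MLN and cultured cells. Irf4 was 3.50 and 3.54 CPM in the thymus pair, 0.668 and 0.637 in the fresh MLN pair, and 155 and 160 after culture, a log2 fold change of 7.91 ± 0.11 in culture. Irf8 was 2.08 CPM in thymus, 6.90 in fresh MLN and 16.2 after culture, and Prdm1, a repressor of Ciita in B lineage cells, was 24.6, 65.6 and 122 CPM. Both thus rose in culture, and in thymus both were below fresh MLN.

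Of the factors that bind the boxes, Rfx5 was 36.4 CPM in thymus, 52.1 in fresh MLN and 27.6 after culture, called lower in both against fresh MLN. Rfxap was not called in any comparison, at 0.16 ± 0.12 in thymus and 0.14 ± 0.12 in cultured cells. Rfxank, Nfya and Nfyc fell in culture by log2 fold changes between -0.65 and -1.01, Creb1 fell by 1.93, and Nfyb rose by 0.20. Over the 19 genes of class II transcription, all tested, thymus against fresh MLN had 2 higher and 7 lower (median log2 fold change -0.05). The 2 became 4 with a replicate block, with library totals alone and without the first thymus library. Cultured against fresh MLN had 5 higher and 11 lower (median -0.64), and cultured cells against thymus 6 higher and 11 lower (median -0.40). Over all genes, 47.3% were called in thymus and 77.6% in cultured cells against fresh MLN, and 72.7% in cultured cells against thymus. Jak1, a kinase of the interferon receptors, was 881, 843 and 563 CPM. Ifng, the main inducer of Ciita outside professional presenting cells, had 2 counts over thymus, 28 over fresh MLN and 22 over cultured cells.

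**Figure D5:**
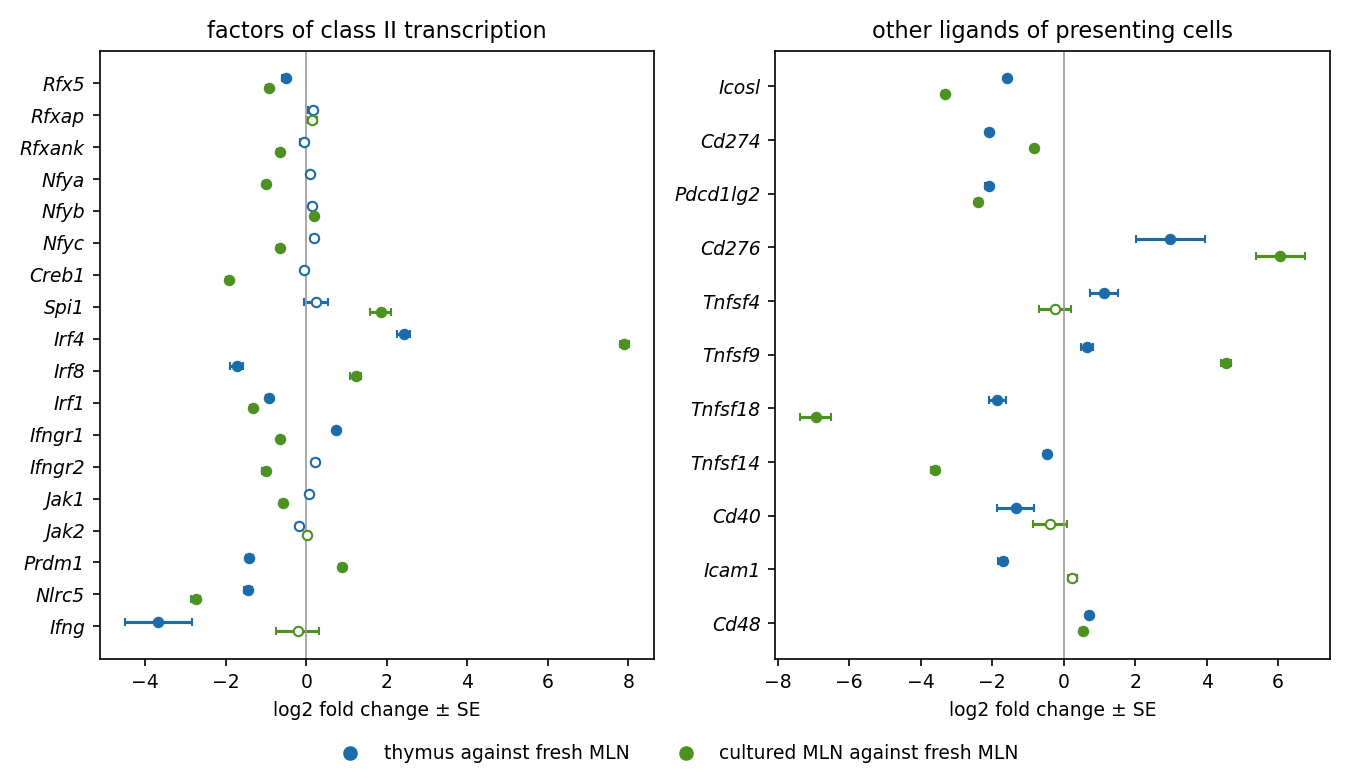
Log2 fold changes with standard errors against fresh MLN of genes of class II transcription (left) and of other ligands of presenting cells (right), with filled points for called genes. Irf4 and Tnfsf9 rose and Nlrc5 and Icosl fell in culture; fitted values of Cd276, Tnfsf18 and Ifng rest on 3 or fewer counts in a group.

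The costimulatory pair was read at very low levels, and its members behaved differently. Cd80 (ENSMUSG00000075122) was 0.394 and 0.691 CPM in the thymus pair, 0.514 and 0.611 in the fresh MLN pair, and 1.63 and 1.96 after culture, from 16 to 71 counts per library. Cultured cells lay above the other 4 libraries, and thymus and fresh MLN overlapped. Cultured cells were higher by 1.67 ± 0.34 against fresh MLN (adjusted p = 0.000609, edgeR) and by 1.73 ± 0.35 against thymus (adjusted p = 0.000544, edgeR), while thymus and fresh MLN were not called (-0.06 ± 0.39). Cd86 (ENSMUSG00000022901) was 0.0985 and 0.133 CPM in the thymus pair (4 and 5 counts), 0.591 and 0.743 in the fresh MLN pair, and 0.724 and 0.689 after culture. Thymus lay below the other 4 libraries, and fresh and cultured MLN overlapped. It was lower in thymus than in fresh MLN (-2.50 ± 0.49, adjusted p = 0.0011, edgeR), higher in cultured cells than in thymus (2.58 ± 0.49, adjusted p = 0.000389, edgeR), and not called between cultured and fresh MLN (0.08 ± 0.37). Per length, Cd80 was 3.95 and 5.14 times Cd86 in the thymus pair, 0.860 and 0.812 times in the fresh MLN pair, and 2.22 and 2.81 times after culture. In fresh MLN the libraries of the pair overlapped per length, from 43 counts of Cd80 and 51 of Cd86, so no order is given there.

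Other ligands of presenting cells ranged from 0 counts to well above Cd80 and Cd86. Icosl, the ligand of Icos, was 62.5 and 70.7 CPM in the thymus pair, 192 and 204 in the fresh MLN pair, and 19.76 and 19.98 after culture. The groups did not overlap, with log2 fold changes of -1.57 ± 0.07 in thymus and -3.32 ± 0.08 in cultured cells against fresh MLN. The PD-1 ligands Cd274 and Pdcd1lg2 were lower in thymus, each at -2.09, and fell in culture by 0.83 and 2.38. Tnfsf9, the ligand of 4-1BB, was 2.44 and 3.16 CPM in the thymus pair, 1.72 and 1.83 in the fresh MLN pair, and 40.7 and 41.9 after culture, a rise in culture of 4.54 ± 0.14. Tnfsf14, also called LIGHT, fell in culture by 3.60, from 108 to 8.91 CPM. Tnfsf18, the ligand of GITR, had 435 counts over fresh MLN and 3 over cultured cells, a ratio of cultured to fresh MLN of 0.00775 (95% counting interval 0.00156 to 0.0224). Icam1, an adhesion ligand, was 30.6, 99.5 and 118 CPM in thymus, fresh MLN and cultured cells. Of 13 such genes 11 were tested, with 4 higher and 7 lower in thymus and 3 higher and 5 lower in cultured cells against fresh MLN (medians -1.34 and -0.38), and 4 higher and 5 lower in cultured cells against thymus (median -0.15). Calls over all genes made up 47.3%, 77.6% and 72.7% in the same order. The 4 higher in thymus became 2 without the first thymus library or the second fresh MLN library. Vtcn1 and Cd70 had 0 counts in every library.

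Receptors for these ligands were read in the same libraries. Cd28, the receptor that Cd80 and Cd86 engage, was 29.7 and 22.4 CPM in the thymus pair, 2.57 and 2.84 in the fresh MLN pair, and 4.74 and 5.48 after culture. Thymus stood above the other 4 libraries, with a log2 fold change of 3.27 ± 0.16 against fresh MLN. Ctla4, the inhibitory receptor for the same ligands, was 4.61 and 3.08 CPM in the thymus pair, 0.334 and 0.0796 in the fresh MLN pair (13 and 3 counts), and 150 and 151 after culture. Lag3, an inhibitory receptor that binds class II, was 0.688, 0.603 and 56.3 CPM and rose in culture by 6.54 ± 0.18. Icos was 390, 231 and 1491 CPM, and Cd4, the coreceptor for class II, was 5.81, 0.966 and 0.660 CPM. All 5 were tested: thymus against fresh MLN had 4 higher, cultured against fresh MLN 4 higher, and cultured cells against thymus 3 higher and 2 lower. The medians of the 5 were 2.58, 2.69 and 1.93. Of all genes tested, 47.3%, 77.6% and 72.7% were called in these comparisons.

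The order of the members by level per length differed between the groups. In thymus it ran from Ctss (64.3 CPM per kb) through Cd74 (4.80), H2-DMa (4.76), H2-Ab1 (2.03), H2-Eb1 (0.855), H2-DMb1 (0.744) and H2-Aa (0.576) to Cd80 (0.147), Ciita (0.145) and Cd86 (0.0316). The libraries of Cd74 and H2-DMa overlapped there, as did those of H2-Eb1 and H2-DMb1 and of Cd80 and Ciita. In fresh MLN the order was Ctss (152), Cd74 (25.9), H2-DMa (6.61), H2-Eb1 (5.24), H2-Ab1 (3.49), H2-Aa (3.43), Ciita (0.275), H2-DMb1 (0.185), Cd86 (0.182) and Cd80 (0.152), where H2-Ab1 and H2-Aa overlapped and each of the last 4 overlapped its neighbour. In cultured cells it was H2-Ab1 (23.6), Ctss (22.2), Cd74 (11.9), H2-DMa (8.86), H2-DMb1 (5.60), H2-Eb1 (0.513), Cd80 (0.484), Ciita (0.328), H2-Aa (0.287) and Cd86 (0.193). H2-Ab1 and Ctss overlapped, as did H2-Eb1 and Cd80 and also Ciita and H2-Aa. By mean CPM, not scaled to length, Ctss in fresh MLN was at percentile 93.6 among all genes tested and Cd86 in thymus at percentile 4.42.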

How the data were processed

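Gene expression was measured by sequencing of mRNA (TruSeq stranded kit, about 300000 cells per sample, per the labels) in 6 libraries. The deposited files give raw counts of reads per Ensembl gene, which the authors made with HTSeq 0.5.3p9 on builds mm9 and NCBIM37, per the submitters' processing notes. For the aligner, annotation release and strand setting, nothing is given in the sources used here. The counts were whole numbers, and 0 rows named no gene. Symbols came from GENCODE M21 by Ensembl identifier (32919 of 37991 matched), as did exon lengths and overlaps. Those lengths belong to a later annotation than the counts, so levels per length (CPM per kb of exon) are approximate.

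Of 23871 genes with a count, filterByExpr left 16231. All 6 libraries were fitted with 1 mean per group, TMM factors and no block in edgeR 4.0.16 (R 4.3.3), and tested with the two-sided quasi-likelihood F test and Benjamini-Hochberg adjustment over all genes in each comparison. A gene is called at an adjusted p under 0.05. The number after ± is the SE, taken as |log2 fold change| over the root of the F statistic. Folds are ratios of mean CPM. Counting intervals are exact at 95% and cover counting error only. The script was tested on simulated data. Libraries of each group differed by more than sampling noise.

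The members and the lists were chosen with earlier results of these data known. Named were all members, Id1, up to 3 called genes per other list and comparison with the largest change and 5 CPM or more, each list's most abundant gene, for lists of other cell types also members at 0 counts and the 2 most abundant, and 5 genes by likeness for 3 members. Chosen after their values were seen were others, among them H2-Oa, H2-Eb2, H2-DMb2, Ctsl, Irf1, Ifng, the box-binding factors, C1qa and C1qb. Alternatives were library totals alone, RLE factors, upper-quartile factors, no filter, at least 5 CPM in 2 libraries, DESeq2 1.42.0, a test against a 2-fold change, the 2 groups compared alone, a replicate block and leaving out each library. Promoters are RefSeq sequences of GRCm38.p6. Some genes of the lists are counted but not reported by name here. No coordinates of the count files' own build were used.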

Additional observations from a re-analysis of the deposited data

How the results depend on the processing

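Of the results for single members under the alternatives, 423 kept their direction and their side of the threshold, 14 kept the direction and lost the call, and 4 changed sign. The 4 were not called in the first place: Cd80 in thymus against fresh MLN was 0.30 without thymus replicate 1 and 0.06 without fresh MLN replicate 2 (range -0.50 to 0.30 when leaving out single libraries), and Cd86 in cultured against fresh MLN was -0.14 with library totals alone and -0.074 without fresh MLN replicate 1 (range -0.074 to 0.25). A test against a 2-fold change called 1298, 5676 and 4455 genes, against 7677, 12592 and 11793, in thymus against fresh MLN, cultured against fresh MLN and cultured MLN against thymus. Under it 5 members were lower in thymus against fresh MLN, and 1 was lower in cultured cells than in thymus. With at least 5 CPM in 2 libraries, Ciita, Cd80 and Cd86 were not tested, and 4 members were higher in cultured cells than in thymus. Library totals alone moved the median log2 fold change of all genes to -0.23 (cultured against fresh MLN) and -0.32 (cultured MLN against thymus). Deviations of same-numbered libraries correlated at 0.20 (thymus with fresh MLN), 0.063 (thymus with cultured MLN) and 0.030 (fresh with cultured MLN). Such values cannot settle whether same-numbered libraries share a source, which the labels do not state. A replicate block called 4274 genes higher and 3775 lower, 6488 and 6250, and 5728 and 6216 in the comparisons in that order, and changed no call of a member. Depth limits Cd80, Cd86 and, in fresh MLN, H2-DMb1, which rest on 4 to 71 counts per library. It also limits H2-Aa (33 and 43 counts) and H2-Eb1 (35 and 34) in cultured cells. In thymus it limits Ciita (59 and 49 counts), H2-DMb1 (53 and 45) and H2-Eb1 (53 and 76).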

Other observations

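The tetraspanins Cd63 and Cd9 moved in opposite directions in culture. Cd63 was 0.394 and 0.319 CPM in the thymus pair, 0.488 and 0.637 in the fresh MLN pair, and 57.5 and 62.3 after culture. Cd9 was 60.9 and 65.0 CPM in the thymus pair, 47.8 and 38.0 in the fresh MLN pair, and 0.0905 and 0.303 after culture. Each had both cultured libraries apart from all others, with log2 fold changes against fresh MLN of 6.73 ± 0.14 for Cd63 and -7.71 ± 0.23 for Cd9, the latter resting on 14 counts over cultured cells. March8, a ligase that removes membrane proteins including class II, was 16.9 CPM in thymus, 23.4 in fresh MLN and 67.0 after culture, and March1, which removes class II and Cd86, had 32, 47 and 5 counts over the same groups.

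The genes whose levels were most like those of Cd74, Ciita and Cd86 across the 6 libraries were ranked by Pearson r of log2 CPM over 10463 genes other than the members, as a description, since 6 libraries in 3 groups leave many genes with a like pattern. For Cd74 they were Fech (0.994), Zswim1 (0.989), Tnks1bp1 (0.988), Zfp956 (0.987) and Slc52a2 (0.987), with 65 genes above 0.95. For Ciita they were Tmem38b (0.994), Hoxb4 (0.992), Il10rb (0.990), Cyb5d2 (0.988) and Cysltr2 (0.985), with 75 above 0.95. For Cd86 they were Acsl1 (0.998), Padi2 (0.997), Insl3 (0.997), Tspyl2 (0.997) and Inpp5d (0.997), with 87 above 0.95.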
